A study of Mus musculus with 16 samples.

Results

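The proneural basic helix-loop-helix (bHLH) genes and their associates described here are 8 genes, Neurog1, Neurog2, Neurod1, Neurod4, Atoh7, Olig2, Nhlh1 and Insm1. They were taken by gene symbol from the 23282 named loci of the deposited expression table, in embryoid bodies with and without Wdr5. Of the 8 genes, 7 encode bHLH proteins. Insm1 encodes a zinc-finger protein and belongs with the others by its place in neurogenesis, not by its domain.

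Proneural bHLH factors bind the E-box motif as dimers with the broadly expressed E proteins and switch progenitors from division to neuronal differentiation. Determination factors such as the neurogenins act first and turn on differentiation factors of the Neurod family and Notch ligands, while Id proteins, which sequester E proteins, and Hes repressors hold the program back. In the retina the same families set the order in which neuron types are born, and in other tissues some of them direct sensory, motor or endocrine cells.

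Mouse embryonic stem cells with a GFP knock-in at Rx, a reporter of the retinal field gene Rax, were differentiated as floating aggregates by SFEBq, a serum-free quick-aggregation culture, in medium with 5% KSR. Matrigel was added to 2% on day 1, and all libraries were made from total RNA of day 6 embryoid bodies. WT aggregates were untreated and Wdr5 KO aggregates received no doxycycline (Dox). Both rescue groups were Wdr5 KO aggregates with inducible human WDR5 in which Dox was given at 12 h (T12h rescue) or 48 h (T48h rescue). Every group was compared with the others at the same day, so the rescue groups differ in when the induction began. Wdr5 is a core subunit of the complexes that methylate histone H3 lysine 4. The KO is named in the series as a single clone, number 3, so clone and genotype cannot be told apart. Only the rescue groups received Dox, so effects of Dox and of the WDR5 induction cannot be told apart either.

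Each group held 2 biological duplicates, called replicates a and b here, each sequenced in 2 runs that were summed. The 8 libraries held 32476651 to 65687435 counts on named genes, of which KO replicate a had the most. The mouse Wdr5 locus stood at 185.6 and 186.5 CPM (counts scaled to a fixed library size) in WT, 32.5 and 28.4 in KO, 328.9 and 336.8 in T12h rescue, and 279.9 and 293.8 in T48h rescue, so it was lowest in both KO libraries. The rescue cells hold inducible human WDR5, and how many of these reads came from it was not tested. Retinal and neural progenitor genes (10 genes including Pax6, Rax and Six3) summed to 1936 to 1988 CPM in WT, 267 to 279 in KO, 2294 to 2324 in T12h rescue and 62.1 to 66.9 in T48h rescue. The embryoid bodies mix cell types, and in bulk RNA fewer cells of a type and less RNA per cell cannot be told apart. With 2 libraries per group, p-values measure only the spread between these libraries.

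All 8 genes have 1 or 2 exons in GENCODE M21. On mm10, the deposited locus of Neurog1 is chr13:56250498-56252163 on the minus strand, that of Neurog2 chr3:127633145-127635631 on the plus strand and that of Atoh7 chr10:63100156-63100605 on the plus strand. Neurod1 lies at chr2:79452641-79456636 and Neurod4 at chr10:130268152-130280240, both on the minus strand. Nhlh1 lies at chr1:172052292-172057596 on the minus strand. Olig2 lies at chr16:91225550-91228677 and Insm1 at chr2:146221997-146225018, both on the plus strand. GENCODE M21 places Cerkl and Gm26755 over Neurod1, and whether counting used strand is not given, so a part of the Neurod1 reads is uncertain. Cerkl held at most 22 counts in any library, and Gm26755 was not analysed here.

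Neurod1 and Olig2 moved in opposite directions between WT and KO, and their upstream sequences are shown for that reason. Both are from RefSeq on GRCm38.p6, 5′ to 3′ on the gene's strand, and end before the earlier of the RefSeq and GENCODE starts. Capitals mark the only E-box (CANNTG, which reads the same on both strands) found in the 250 bases before the RefSeq start.
Neurod1, chr2:79456752-79456886, minus strand: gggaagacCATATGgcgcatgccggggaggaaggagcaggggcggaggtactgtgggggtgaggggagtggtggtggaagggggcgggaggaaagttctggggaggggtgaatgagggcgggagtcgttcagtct
Olig2, chr16:91225300-91225456, plus strand: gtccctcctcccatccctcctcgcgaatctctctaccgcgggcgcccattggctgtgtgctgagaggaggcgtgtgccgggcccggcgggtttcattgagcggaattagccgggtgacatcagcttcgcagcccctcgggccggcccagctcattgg
The Neurod1 E-box, CATATG, begins 242 bases before the RefSeq start, and the Olig2 window holds none. An E-box was found in 66.0% of 27025 such 250-base windows over all genes, so its presence or absence describes these letters only. Of the other members, 5 had a window in the table. Atoh7 held 3 E-boxes and Nhlh1 held 1, while Neurog1, Neurog2 and Neurod4 held none.

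Per unit of transcript length, all members were low in every group. In WT, Insm1 led at 0.829 ± 0.0384 FPKM (fragments per kilobase, scaled to library depth; mean ± SD, n = 2), followed by Neurod1 at 0.512 ± 0.120, Neurog1 at 0.420 ± 0.114 and Olig2 at 0.366 ± 0.0224. Atoh7 (0.244 ± 0.218), Neurog2 (0.225 ± 0.101), Neurod4 (0.158 ± 0.0939) and Nhlh1 (0.130 ± 0.0428) were lower, and below Insm1 each neighbour in this order lay within the SDs of the next. The place of Atoh7 rests on 5 counts, against 39 for Neurog2, over a deposited locus of 450 bases (1629 in GENCODE M21). The median of the tested genes was 6.48 FPKM in WT, and only 25.5% of them lay below Insm1. In KO, Neurod1 led at 2.89 ± 0.185 FPKM, above 38.2% of tested genes, and the next member, Insm1, stood at 0.184 ± 0.0732. In T12h rescue, Insm1 (1.18 ± 0.180) and Olig2 (1.15 ± 0.242) led and did not differ beyond their SDs. In T48h rescue, Neurod1 (0.472 ± 0.158) and Insm1 (0.441 ± 0.188) led, again within their SDs, while Olig2 and Atoh7 had no counts.

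**Figure D1:**
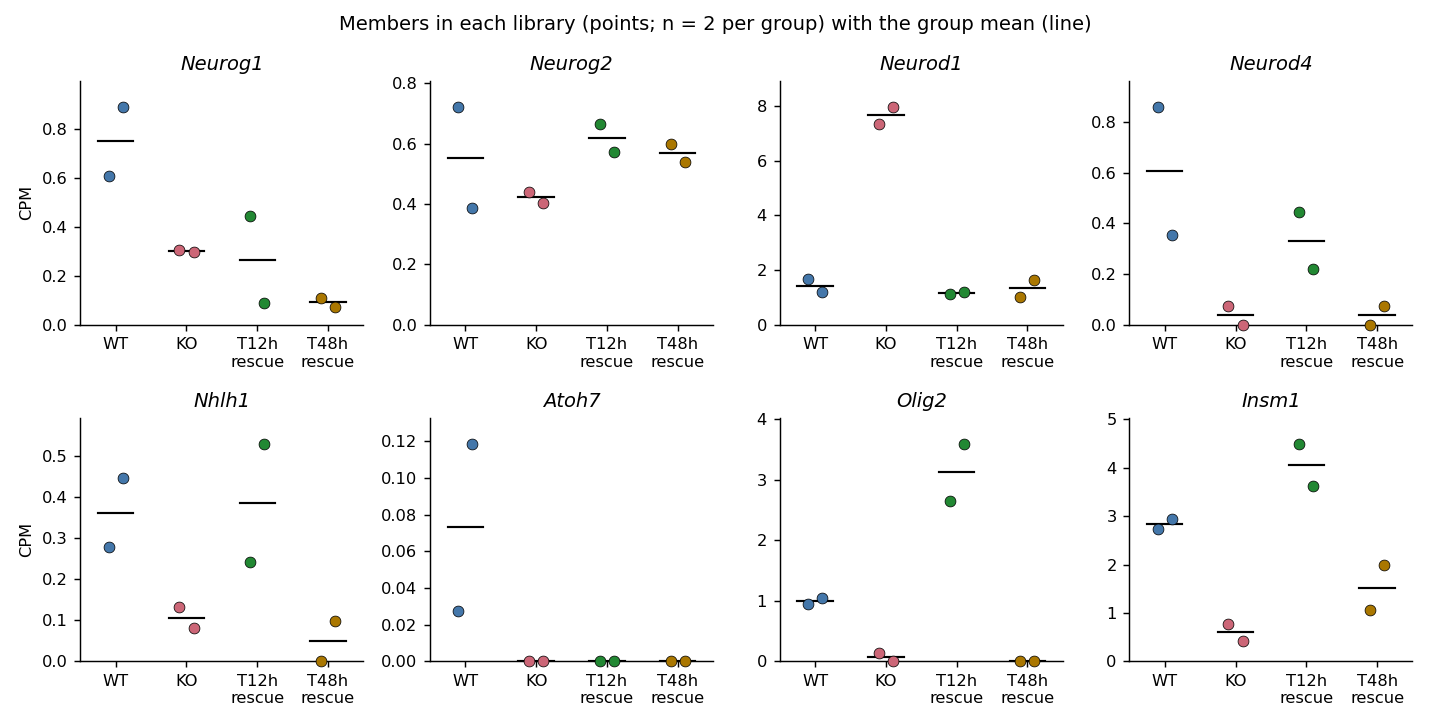
CPM of each of the 8 genes (vertical axis, linear from 0, scaled per gene) in the 8 libraries by group; points are libraries, lines are group means. Neurod1 is high in KO alone of the 4 groups, at 7.35 and 7.96 CPM, while Olig2 and Insm1 are highest in T12h rescue, and Olig2 has no counts in T48h rescue.

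To find what loss of Wdr5 did to these genes, KO was compared with WT. Neurod1 rose, Insm1, Olig2 and Neurod4 fell, and Neurog1, Neurog2 and Nhlh1 did not pass the test (adjusted p under 0.05, edgeR quasi-likelihood test with Benjamini-Hochberg adjustment over 16130 genes). That is 4 of 7 tested members called, beside 64.1% of all genes tested, so the count of members called was near the background. The 1 higher and 3 lower calls stand beside 31.7% and 32.4% of all genes. The median log2 fold change of the 7 tested members was -1.70, the value of Nhlh1, which was not called. That of all genes was 0.00. Atoh7 did not pass the filter on low counts. Leaving out WT replicate a, WT replicate b, KO replicate b or T12h replicate a lowered the members called to 3, each time by the loss of Neurod4.

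Neurod1, a differentiation factor that acts after the neurogenins and also serves retinal and endocrine cells, was the one member that rose. It stood at 1.66 and 1.19 CPM in WT, 7.35 and 7.96 in KO, 1.11 and 1.19 in T12h rescue, and 1.01 and 1.64 in T48h rescue. Both KO libraries lay far above the other 6, which overlapped one another. In counts this was 60 and 40 in WT against 502 and 295 in KO. The log2 fold change of KO over WT was 2.42 ± 0.36 (SE; edgeR adjusted p = 6.53e-05), 5.28 times as many normalised counts (95% interval 4.28 to 6.56, counting error only). Both rescues brought Neurod1 down from the KO level, by -2.73 ± 0.37 on the log2 scale in the earlier (edgeR adjusted p = 2.22e-05) and -2.52 ± 0.36 in the later induction (edgeR adjusted p = 4.15e-05). Neither rescue differed from WT by the test. The 95% intervals of the log2 difference were -1.11 to 0.48 for T12h and -0.90 to 0.70 for T48h, so differences inside these bounds were not excluded. These calls held in all 18 alternative settings. Cerkl, which shares the locus, had 3 and 9 counts in WT and 22 and 13 in KO, far fewer than Neurod1 gained.

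Olig2, a bHLH repressor that acts in motor neuron and oligodendrocyte progenitors, also marks parts of the early neural tube and diencephalon. It fell in KO. The counts were 34 and 35 in WT, 10 and 0 in KO, 143 and 163 in T12h rescue, and 0 and 0 in T48h rescue. No KO or T48h library reached the WT counts, both T12h libraries exceeded WT, and the KO counts came from replicate a alone. In CPM, Olig2 was 0.991 ± 0.0677 in WT, 0.0732 ± 0.103 in KO and 3.12 ± 0.668 in T12h rescue (mean ± SD, n = 2). The log2 fold change of KO over WT was -3.48 ± 0.85 (edgeR adjusted p = 0.00352), and that of T12h over KO was 5.13 ± 0.87 (edgeR adjusted p = 0.000238). Both calls held in all 18 alternative settings. At T48h, Olig2 was at least 25.6-fold lower than in WT (edgeR adjusted p = 0.000584) and at least 79.5-fold lower than at T12h (edgeR adjusted p = 8.2e-05), taking 3 counts over the 2 T48h libraries as the floor. Against KO it was at least 2.45-fold lower, with the 10 KO counts taken as exact (edgeR adjusted p = 0.0416). That call rests on KO replicate a. Without that library both groups were at 0 counts (edgeR adjusted p = 1), and without T12h replicate a, T12h replicate b, T48h replicate a or T48h replicate b the adjusted p was 0.0549, 0.0596, 0.0965 or 0.112. The ratio of T12h to WT was 3.11 (95% counting interval 2.39 to 4.10), but the log2 value, 1.65 ± 0.71, did not pass the test (edgeR adjusted p = 0.154). With the other groups left out of the fit the adjusted p was 0.00259, and without KO replicate a or KO replicate b it was 0.0416 or 0.0474.

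Insm1, a zinc-finger factor of neurogenic progenitors and endocrine precursors that lies downstream of neurogenins, fell in KO and rose in both rescues. It stood at 2.75 and 2.94 CPM in WT, 0.776 and 0.432 in KO, 4.50 and 3.63 in T12h rescue, and 1.06 and 1.99 in T48h rescue. The groups did not overlap in this order: KO lowest, then T48h, WT and T12h. Against WT, the log2 fold change in KO was -2.20 ± 0.45 (edgeR adjusted p = 0.000869). Against KO it was 2.71 ± 0.45 in T12h rescue (edgeR adjusted p = 0.000161) and 1.30 ± 0.45 in T48h rescue (edgeR adjusted p = 0.0214). The T48h call ended when KO replicate b (adjusted p = 0.0961) or T48h replicate b (adjusted p = 0.175) was omitted. Neither rescue passed the test against WT, with log2 fold changes of 0.52 (95% interval -0.39 to 1.42) at T12h and -0.89 (-1.83 to 0.04) at T48h. Without T48h replicate b the T48h fall against WT was 1.43 on the log2 scale (edgeR adjusted p = 0.0316). T48h over T12h gave -1.41 ± 0.43 (edgeR adjusted p = 0.0149), which no longer passed once T12h replicate a (adjusted p = 0.0867) or T48h replicate a (adjusted p = 0.0763) was omitted.

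Neurog1, which specifies cranial sensory neurons, had few counts. They were 22 and 30 in WT, 21 and 11 in KO, 24 and 4 in T12h rescue, and 4 and 3 in T48h rescue. In CPM the WT libraries (0.610 and 0.890) lay above the other 6, and the T12h replicates (0.444 and 0.0881) stood far apart. The log2 fold change of KO over WT was -1.30 ± 0.91 and did not pass the test (edgeR adjusted p = 0.227). T48h rescue was lower than WT, at -3.01 ± 1.03 on the same scale (edgeR adjusted p = 0.0289). That call was lost when WT replicate a, WT replicate b, T48h replicate a or T48h replicate b was left out, with adjusted p of 0.101, 0.189, 0.0958 and 0.134. Against KO, T48h gave -1.71 ± 1.04 (edgeR adjusted p = 0.162) and T12h gave -0.17 ± 0.92 (edgeR adjusted p = 0.885).

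Neurog2, the determination factor of cortical and spinal neurons, gave 26 and 13 counts in WT, 30 and 15 in KO, 36 and 26 in T12h rescue, and 22 and 22 in T48h rescue. In CPM all libraries lay between 0.386 and 0.721, and those 2 extremes were the WT duplicates. None of its 6 comparisons passed the test. The log2 fold change of KO over WT was -0.39, with a 95% interval of -1.95 to 1.17 (edgeR adjusted p = 0.653). A change within these bounds was not excluded at this depth.

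Neurod4, which acts with Neurod1 in amacrine and other retinal neurons, gave 31 and 12 counts in WT, 5 and 0 in KO, 24 and 10 in T12h rescue, and 0 and 3 in T48h rescue. Both KO and both T48h libraries lay below all WT and T12h libraries in CPM. KO was lower than WT, at -3.73 ± 1.29 on the log2 scale (edgeR adjusted p = 0.0218). Omitting WT replicate a (adjusted p = 0.209), WT replicate b (0.0584), KO replicate b (0.113) or T12h replicate a (0.0541) ended this call. T48h rescue held 3 counts in all, and WT was 15.9 times as high (95% counting interval 5.10 to 80.3; edgeR adjusted p = 0.0312). Leaving out either WT replicate (adjusted p = 0.241 for a and 0.0816 for b), either T12h replicate (0.0716 and 0.0642) or T48h replicate a (0.181) ended that call. T12h rescue over KO gave 2.87 ± 1.28 and did not pass (edgeR adjusted p = 0.0648), except without KO replicate a (adjusted p = 0.0468).

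Nhlh1, a bHLH gene of newborn neurons, gave 10 and 15 counts in WT, 9 and 3 in KO, 13 and 24 in T12h rescue, and 0 and 4 in T48h rescue. In CPM, KO and T48h libraries lay below those of WT and T12h, but no comparison passed the test. The log2 fold changes were -1.70 ± 1.11 for KO over WT (edgeR adjusted p = 0.198), -2.76 ± 1.25 for T48h over WT (edgeR adjusted p = 0.0871) and -2.85 ± 1.23 for T48h over T12h (edgeR adjusted p = 0.0714). Without T48h replicate b, which left T48h with no counts, the adjusted p of the last pair was 0.0485 and 0.0430.

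Atoh7, which makes retinal progenitors competent to form ganglion cells, had 1 and 4 counts in WT and none in the other 6 libraries. Its WT level was 0.0732 ± 0.0642 CPM. No count in KO, T12h or T48h allows up to 0.0285, 0.0302 or 0.0387 CPM by the floor of 3 counts over a group. The WT level pooled over both libraries (5 counts over their summed size) lay 2.52-fold, 2.38-fold and 1.85-fold above these levels. With 5 counts in WT, 4 of them in replicate b, these values do not bound the true difference. Atoh7 was not tested. The deposited locus spans 450 bases, against 1629 in GENCODE M21, so reads outside the shorter model were not counted for it.

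**Figure D2:**
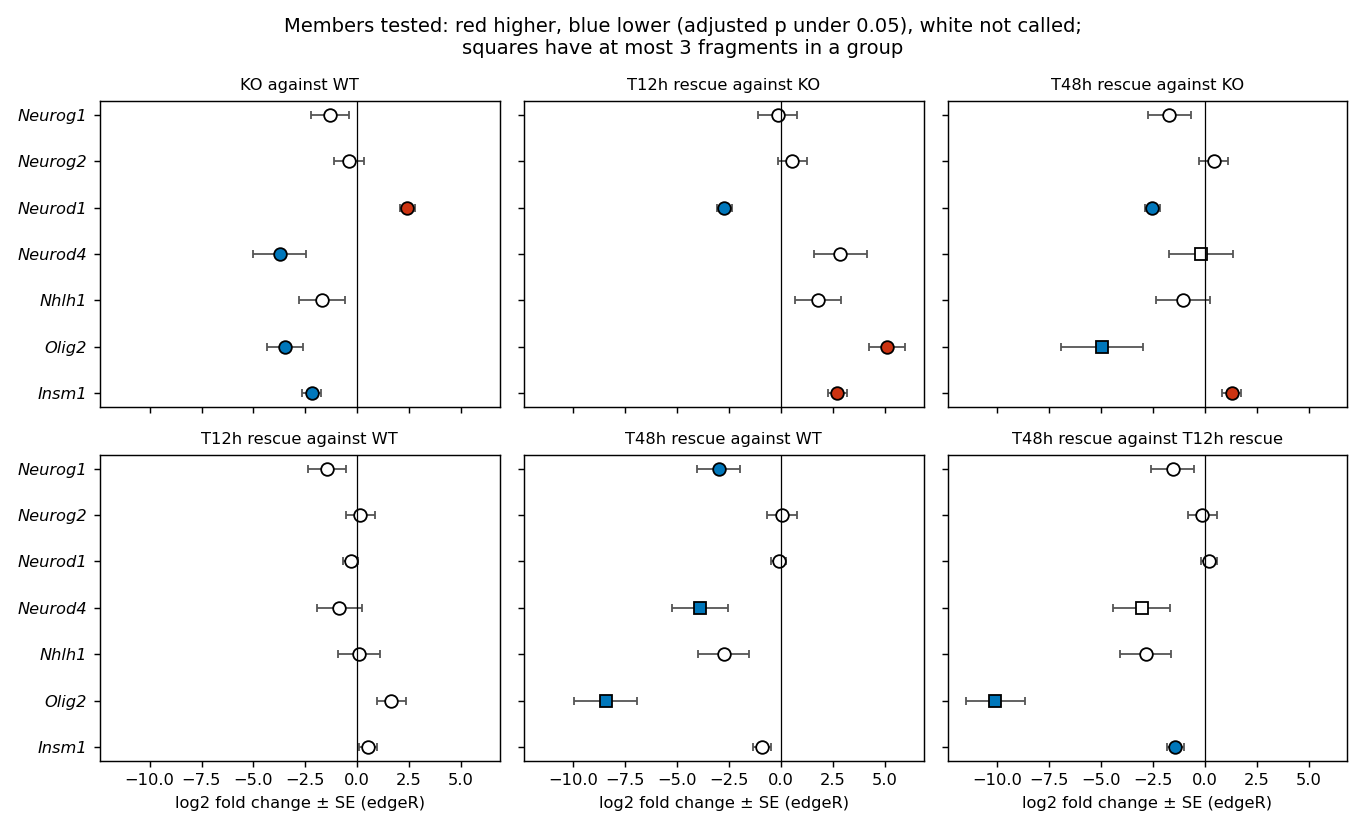
Log2 fold change (horizontal axis, bars are SE) of the 7 tested genes in the 6 comparisons; red is higher and blue lower by edgeR at an adjusted p under 0.05, white is not called, and squares have at most 3 counts in a group, so their position is no bound. Neurod1 is the only red point for KO against WT at 2.42 and the only blue point for T12h against KO at -2.73, and no point is called for T12h against WT.

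To ask whether human WDR5 restored these genes, each rescue was set against KO and against WT. Against KO, the T12h rescue raised Olig2 and Insm1 and lowered Neurod1, 3 of 7 tested members beside 64.8% of all genes (32.8% higher and 32.1% lower). The T48h rescue raised Insm1 and lowered Neurod1 and Olig2, 3 of 7 beside 67.3% of all genes (34.2% higher and 33.2% lower). The member median was 1.78 at T12h and -1.07 at T48h on the log2 scale, with all genes at -0.01 and -0.00. Both member medians were the values of Nhlh1, which was not called. Leaving out single libraries gave 1 to 3 members for T48h against KO: 1 without T48h replicate b, and otherwise losses of Olig2 or Insm1 as given above. Both rescue contrasts share the KO libraries.

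Against WT, the T12h rescue changed none of the 7 tested members by edgeR, beside 14% of all genes called (7.9% higher and 6.11% lower). Those 2261 genes became 1070 without WT replicate a, 1217 without T12h replicate a and 1316 without T12h replicate b. At an unadjusted p under 0.05 there was 1, Olig2, and DESeq2 called 0; without KO replicate a or KO replicate b edgeR called Olig2 as well. The T48h rescue lowered Olig2, Neurod4 and Neurog1 and raised no member, 3 of 7 beside 47.3% of all genes (23.9% higher and 23.4% lower), with a member median of -2.76 against -0.04 for all genes. These calls ranged from 1 to 4 members when single libraries were left out, through Neurog1, Neurod4, Nhlh1 and Insm1 as given above. Set directly against T12h, the T48h rescue was lower in Olig2 and Insm1, 2 of 7 beside 50.2% of all genes (24.9% higher and 25.3% lower), with a member median of -1.54 against -0.03. Single libraries left out gave 1 to 3 members, through the loss of Insm1 or the gain of Nhlh1 as given above. Placing Olig2 at its bound changed none of these medians. Those of -2.76 and -1.54 were the values of Nhlh1 and Neurog1, neither of them called in that comparison. Neurod1 did not differ between the rescues by the test (log2 fold change 0.21, 95% interval -0.59 to 1.00).

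For each member the genes whose profile over the 8 libraries was most alike were found by the root mean square (RMS) difference in log2 CPM after centring. They are a description of 8 libraries in 4 groups. A small count was added before taking logs, which narrows the spread of low-count genes. Neurod1 was nearest to Serinc5 (RMS 0.207), which stood at 25.4 CPM in WT and 173.9 in KO, and to Dapp1 (0.210). Insm1 was nearest to Dnahc7b (0.112) and Mkrn3 (0.213). Olig2 was nearest to Tox2 (0.465), at 38.7 CPM in WT, 4.31 in KO, 73.3 in T12h rescue and 1.96 in T48h rescue, and to Chrdl1 (0.533). The low-count members had as neighbours Synpr (0.232) and Fam228a (0.377) for Neurod4, Inpp5j (0.386) and Dnaaf3 (0.450) for Neurog1, and Ikzf1 (0.359) and Erc2 (0.368) for Nhlh1. Neurog2, which passed the test in no comparison, was nearest to Plekho2 (0.148) and Rbm15b (0.160).

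The E proteins, the dimer partners of the bHLH members, fell in KO and rose in both rescues. Tcf12 was at 432.6 and 439.5 CPM in WT, 114.6 and 99.2 in KO, 365.9 and 377.1 in T12h rescue, and 255.9 and 254.0 in T48h rescue. Thus all KO values lay below the others, and T48h fell between KO and WT. All 3 E proteins were lower in KO than in WT, with log2 fold changes of -2.03 ± 0.08 for Tcf12, -1.56 ± 0.08 for Tcf4 and -0.75 ± 0.08 for Tcf3 (edgeR adjusted p of 1.53e-10, 3.94e-09 and 2.66e-06), and all 3 were higher than KO in each rescue. T48h was below T12h in all 3, by -0.54 for Tcf12, -0.73 for Tcf4 and -0.29 for Tcf3. Of all genes tested, 32.4% were called lower in KO than in WT, and 25.3% lower at T48h than at T12h. Against KO, 32.8% were called higher at T12h and 34.2% at T48h.

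Of 11 repressors that oppose the proneural program (Id, Hes and Hey genes and Rest), 2 rose and 5 fell in KO, with a median of -0.77. The 7 called stand near the background of 64.1% of all genes. Id2 fell from 218 to 55.2 CPM (log2 fold change -1.98, edgeR adjusted p = 1.03e-09). Hes1, the Notch effector that represses proneural genes, fell from 152 to 36.5 CPM (-2.06, edgeR adjusted p = 6.71e-09), and Hes5 from 8.002 to 0.102 CPM (-5.97, edgeR adjusted p = 1.12e-06). Id1 did not pass, at 69.5 and 72.1 CPM. The rescues parted in Hes1, which was 159.8 and 201.5 CPM at T12h and 35.2 and 29.8 at T48h. At T48h against KO, 6 rose and 2 fell (1 without WT replicate a, KO replicate a or T48h replicate b), beside 67.3% of all genes called, with Hey2, a Notch effector of heart and vessels, at 66.3 against 2.84 CPM (4.55, edgeR adjusted p = 1.34e-10).

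**Figure D3:**
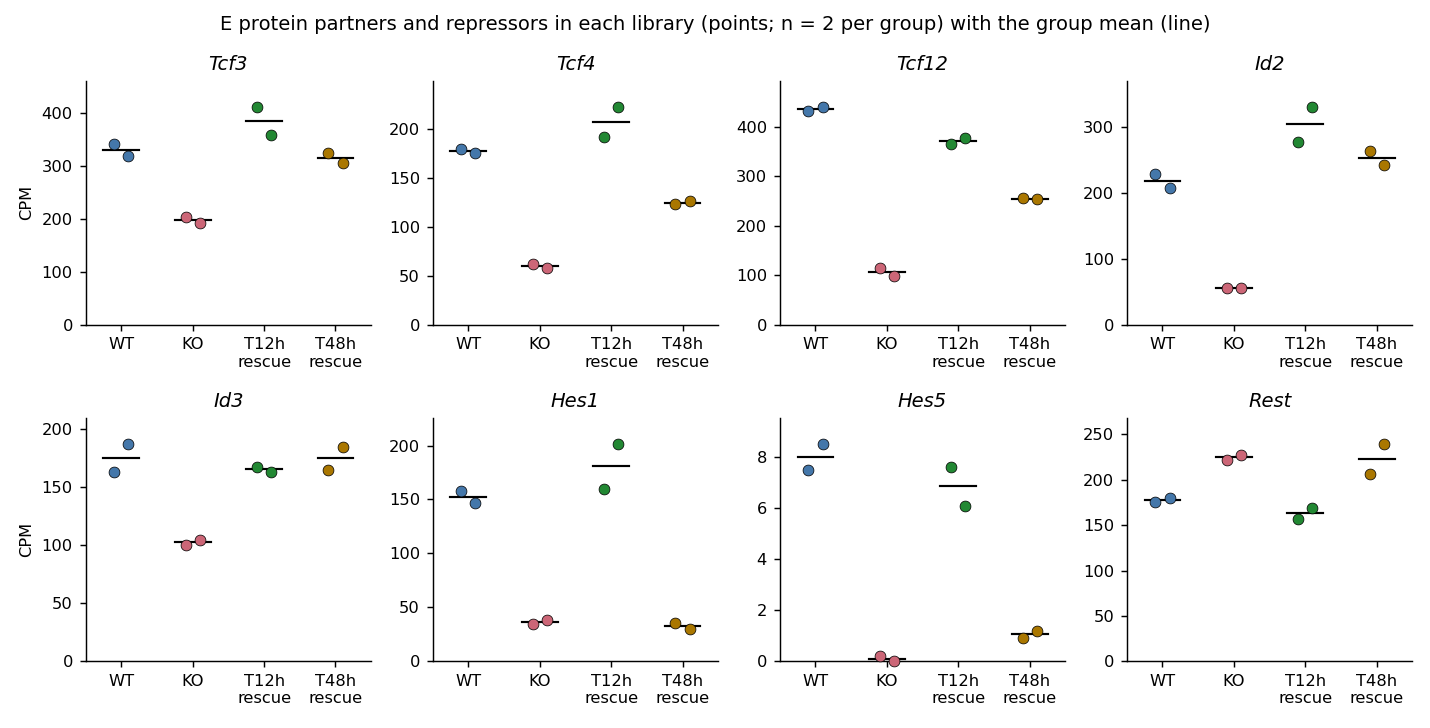
CPM (vertical axis, linear from 0, scaled per gene) of the E proteins Tcf3, Tcf4 and Tcf12 and of the repressors Id2, Id3, Hes1, Hes5 and Rest in the 8 libraries by group; points are libraries, lines are group means. Hes1 is at 29.8 to 38.5 CPM in both KO and T48h rescue libraries, while the E proteins and Id2 are higher in T48h rescue than in KO.

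Other proneural bHLH genes, 12 in the list, were also sparse, and 7 passed the filter on low counts. In KO against WT, 1 rose and 3 fell, beside 64.1% of all genes called. Atoh8 fell from 10.6 to 1.93 CPM (log2 fold change -2.46 ± 0.20, edgeR adjusted p = 1.97e-07), and Nhlh2, the closest relative of Nhlh1, was at least 12.6-fold lower (edgeR adjusted p = 0.00570). Olig1, the neighbour of Olig2 on the chromosome, rose from 3 and 10 counts to 47 and 66, opposite to Olig2 (2.68 ± 1.08, edgeR adjusted p = 0.0468), but not without WT replicate a, WT replicate b, KO replicate b or T12h replicate a. At T48h, 9 of the 12 were at 0 counts, against 3 in WT, 2 in KO and 3 in T12h rescue, and the members Olig2 and Atoh7 were at 0 there too. Neurod6 was at 0 in every library and Neurod2 and Ptf1a in all groups but KO, while Olig1 was at 0 in T48h rescue alone and Nhlh2 in KO and T48h rescue. The share of all genes at 0 counts was not taken, and depth differed between libraries, with KO replicate a the deepest. These zeros therefore describe the named genes only. Olig1 was at least 27.7-fold lower at T48h than in KO (edgeR adjusted p = 0.00131), while Atoh8 was higher (16.2 CPM, log2 fold change 3.07 ± 0.20, edgeR adjusted p = 1.98e-08).

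Genes known to be activated by proneural factors were called in KO about as often as all genes. Of 22 in the list, all tested, 6 rose and 7 fell, beside 31.7% higher and 32.4% lower of all genes, with a median of 0.16 against 0.00 for all genes. Sox11 fell from 763 to 135 CPM (log2 fold change -2.50, edgeR adjusted p = 2.62e-11), and Sox4 (-1.26) and the cell-cycle inhibitor Cdkn1c (-1.98) fell too. Btg2, an antiproliferative gene of neurogenic divisions, rose from 43.4 and 52.3 CPM in WT to 284.0 and 276.1 in KO (2.55, edgeR adjusted p = 3.47e-10) and was 54.0 and 49.0 at T12h and 37.0 and 43.4 at T48h. In these libraries Btg2 was high in KO alone, as Neurod1 was, and a link between them was not tested. The Notch ligand Dll1 stood at 31.4 CPM in WT and 4.95 at T48h (-2.67, edgeR adjusted p = 7.45e-09). Against KO, 5 rose and 9 fell at T12h (5 fell without T12h replicate b), and 8 rose and 8 fell at T48h, beside 64.8% and 67.3% of all genes called.

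Of 10 genes of differentiated neurons, KO had 5 higher and 3 lower than WT, beside 64.1% of all genes called, and their summed level was 103 to 105 CPM in WT, 177 to 182 in KO, 101 to 103 in T12h rescue and 40.3 to 45.4 in T48h rescue. Gap43, a growth cone protein, rose from 6.17 to 59.4 CPM (log2 fold change 3.27, edgeR adjusted p = 8.16e-10) and Stmn2 from 11.7 to 35.6 CPM (1.61, edgeR adjusted p = 1.80e-06). Syt1, a synaptic vesicle calcium sensor, fell from 27.6 to 1.23 CPM (-4.48, edgeR adjusted p = 4.73e-10), and Stmn3 fell from 5.25 to 0.838 (-2.61, edgeR adjusted p = 2.86e-05). Neurod1 and the neuron genes that rose were high in the same KO libraries as pluripotency genes, and the part of either in the other was not tested. No gene of the neuron list was at 0 counts in any group.

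**Figure D4:**
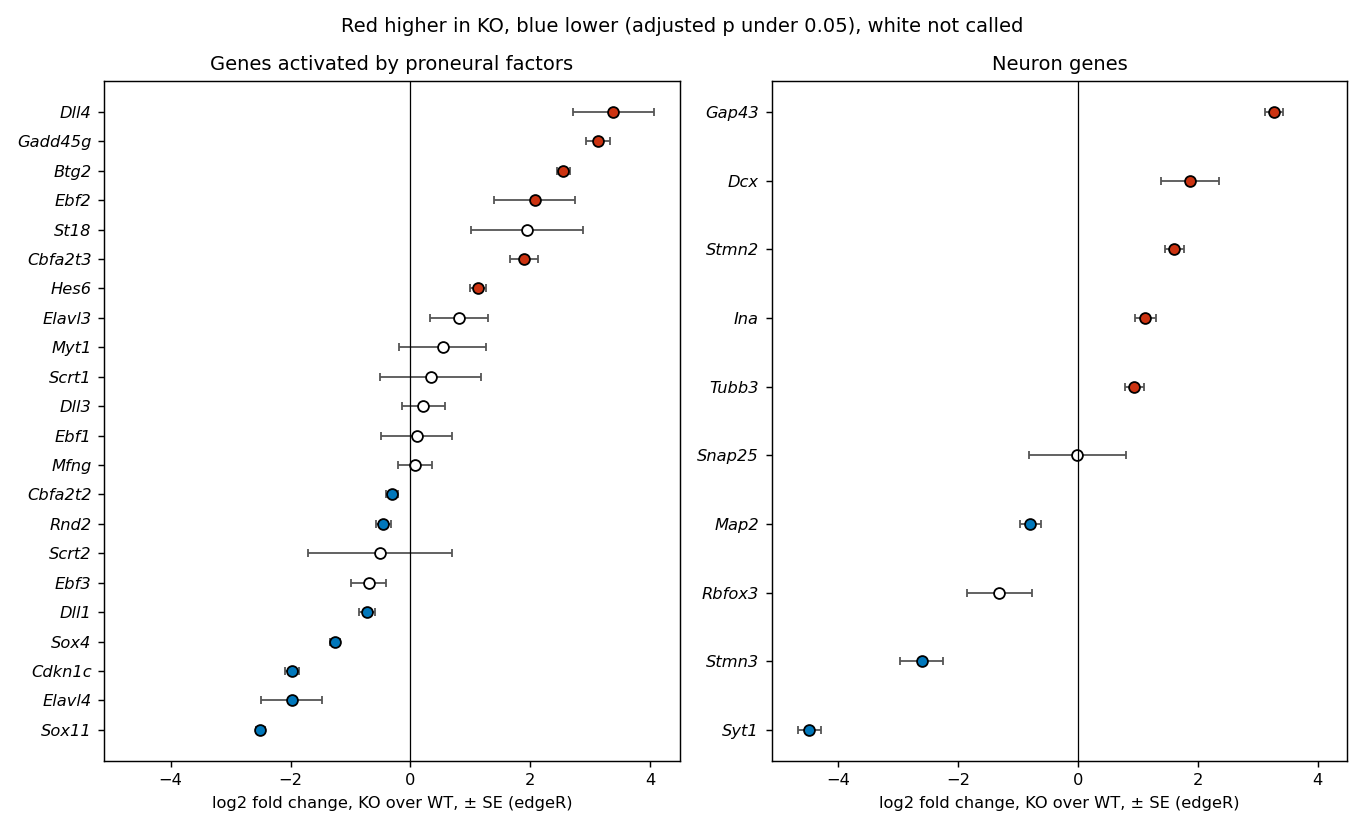
Log2 fold change of KO over WT (horizontal axis, bars are SE) for 22 genes activated by proneural factors (left) and 10 neuron genes (right); red is higher and blue lower by edgeR at an adjusted p under 0.05, white is not called. Both lists hold genes called in each direction, from Sox11 at -2.50 to Btg2 at 2.55 and beyond on the left, and from Syt1 at -4.48 to Gap43 at 3.27 on the right.

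Markers of cells in which the members work moved with them as follows. Of all genes tested, 31.7% were called higher and 32.4% lower in KO against WT, and 32.8% higher at T12h against KO. At T48h, 34.2% were called higher and 33.2% lower against KO, and 25.3% lower against T12h. Of 10 neural and retinal progenitor genes, all fell in KO against WT and all rose in T12h rescue against KO, the comparisons in which Olig2 and Insm1 moved the same way. Against KO, T48h rescue had 2 of the 10 higher (4 without KO replicate a or T48h replicate b) and 6 lower, with a median of -1.14, while Insm1 was called higher at 1.30. T48h rescue was lower than T12h in all 10, with none at 0 counts in any group. Pluripotency genes, 7 of 7 higher in KO, summed to 144 to 162 CPM in WT, 714 to 718 in KO, 42.0 to 42.9 in T12h rescue and 25.3 to 31.1 in T48h rescue, and none was at 0. Cardiac mesoderm genes, 7 of 7 higher in T48h rescue than in KO, summed to 98.5 to 100.3 CPM in WT, 230 to 242 in KO, 97.1 to 112.6 in T12h rescue and 2678 to 2727 in T48h rescue, and none was at 0. Their part in the members' changes was not tested.

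For the cell types of single members the lists were mixed. Their counts in KO against WT stand beside 64.1% of all genes called, 31.7% higher and 32.4% lower. Motor neuron and ventral cord genes, where Olig2 acts, had 4 higher and 1 lower of 7 tested in KO against WT (2 lower without WT replicate b, KO replicate b, T48h replicate a or T48h replicate b) and summed to 298 to 343 CPM in WT, 73.0 to 75.1 in KO, 278.6 to 278.7 in T12h rescue and 131 to 136 in T48h rescue. Pax6 alone made up 311 of that sum in WT and 263 in T12h rescue, against 1.02 in KO, while Irx3 made up 62.5 in KO and was 5.20 in WT. Nkx2-2, a ventral neural and endocrine factor, stood at 0.734 CPM in WT, 3.05 in KO, 5.04 in T12h rescue and 0.231 in T48h rescue, while Lhx3 was at 0 counts in WT. Oligodendrocyte precursor genes had 4 higher and 2 lower of 7 in KO (1 lower when any WT, KO or T12h replicate was left out), summing to 122 to 126 CPM in WT, 327 to 362 in KO, 131 to 150 in T12h rescue and 529 to 551 in T48h rescue. Olig1 was at 0 in T48h rescue. Pdgfra, which mesoderm also expresses, made up most of each sum, at 109 CPM in WT, 331 in KO, 127 in T12h rescue and 518 in T48h rescue. Endocrine genes, where Neurod1 and Insm1 also act, had 1 higher and 2 lower of 8 tested in KO (1 lower without WT replicate a, WT replicate b, KO replicate a, KO replicate b or T12h replicate b), summing to 18.7 to 19.7 CPM in WT, 9.38 to 11.4 in KO, 12.05 to 15.7 in T12h rescue and 57.5 to 62.6 in T48h rescue. Isl1, which the ganglion, sensory and motor lists also hold, made up 53.3 and 57.0 CPM of the T48h sums and was under 1 CPM in the other libraries. Pax4 was at 0 in all groups but KO, which held the deepest library, and Neurog3 was at 0 in T48h rescue.

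Retinal ganglion and amacrine genes, where Atoh7, Neurod1 and Neurod4 act, had 3 higher and 3 lower of 8 in KO, beside 64.1% of all genes called. They summed to 128 to 129 CPM in WT, 89.3 to 92.4 in KO, 127 to 131 in T12h rescue and 122 to 126 in T48h rescue, with none at 0 in any group. Gap43, which the neuron list also holds, rose from 6.17 CPM in WT to 59.4 in KO (log2 fold change 3.27, edgeR adjusted p = 8.16e-10). It thus made up most of the KO sum. Eya2 fell from 49.9 to 0.576 CPM in KO (edgeR adjusted p = 3.37e-09), and Pou4f1 did not pass at 3.05 and 3.13. Placode and sensory neuron genes, where Neurog1 acts, had 2 higher and 5 lower of 10 in KO, near the 64.1% of all genes called. They summed to 95.9 to 97.8 CPM in WT, 49.5 to 58.7 in KO, 73.9 to 74.6 in T12h rescue and 118 to 134 in T48h rescue. Leaving out any WT, KO or T12h replicate gave 1 higher gene in that list, and leaving out WT replicate a, WT replicate b or KO replicate a gave 3 lower.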

How the data were processed

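RNA-seq of day 6 embryoid bodies was deposited as 2 tables with a column per duplicate and run in 4 groups. The submitters' processing notes name Cufflinks 2.2.1, TopHat2 2.1.1, deepTools, SAMtools 1.5 and the build mm10. Neither the annotation nor the strand setting is given in the sources used here. The deposited estimated counts (expected counts) had each been scaled by the authors with a factor per column. Dividing it out (0.630 to 1.29) left 88.6% to 91.9% of values whole within 0.02, and these were rounded. The authors' FPKM values were used for levels between genes and in limma. A further 96 columns were not used.

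Column names give the group but neither run nor duplicate number. Columns were joined as runs of 1 duplicate where their counts agreed best (chi-square per degree of freedom 1.64 to 1.88, against 10.3 to 18.8 between duplicates), then summed and named replicates a and b. Unnamed loci (5143, with 3.16% to 6.12% of counts) and 7 named loci marked as too deep to estimate were left out, so that 23282 remained.

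Counts were tested with edgeR 4.0.16 (R 4.3.3) by the quasi-likelihood test after filterByExpr and TMM scaling, with all 4 groups in 1 fit and 4 residual degrees of freedom (common biological coefficient of variation 12.6%). Benjamini-Hochberg adjustment ran over 16130 genes, and adjusted p under 0.05 was the threshold in 6 comparisons. CPM uses TMM library sizes. The script was tested on simulated data. Alternatives used DESeq2 1.42.0, limma 3.58.1 on log2(FPKM + 1) and log2(FPKM + 0.1), other scaling, filters, samples and a fold threshold, and single libraries left out. Promoter sequences are from RefSeq (GRCm38.p6), with 7 of 8 members matched, and overlaps from GENCODE M21. Intervals and floors of 3 counts cover counting error only, and the floors take the counts of the other group as exact.

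The members and lists were chosen with earlier results of these data known. Named were all members, and of each list up to 4 genes with the smallest adjusted p and up to 2 not called with the highest mean CPM, in each comparison; 2 profile neighbours were named per member. Drgx of the sensory list had no locus of that name, and some list genes are not reported here.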

Additional observations from a re-analysis of the deposited data

Results flagged for a closer look

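The rescue effects on Olig2 and Insm1 differed between the induction times, by the test of T48h against T12h rescue. For Olig2 the fitted log2 difference (T48h minus T12h) was -10.10 (edgeR adjusted p = 8.2e-05), which is no bound, since T48h had 0 counts, against 143 and 163 at T12h. For Insm1 it was -1.41 ± 0.43 (edgeR adjusted p = 0.0149), with 4.50 and 3.63 CPM at T12h and 1.06 and 1.99 at T48h. It no longer passed once T12h replicate a (adjusted p = 0.0867) or T48h replicate a (adjusted p = 0.0763) was omitted.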

How the results depend on the processing

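Over 18 alternative settings, 682 of 751 member values kept their direction and their side of the threshold. Of the rest, 35 lost the call, 14 gained one, 19 changed direction without a call in either fit and 1 reversed. The reversal was Olig2 in T48h against KO without KO replicate a, at 0 (edgeR adjusted p = 1), since neither group then had counts, and its value ranged from -5.74 to 0 over the single libraries left out. Testing against a log2 fold change of 1 lowered the genes called to 3785 for KO against WT, 3971 for T12h against KO, 4364 for T48h against KO, 64 for T12h against WT, 2187 for T48h against WT and 2300 for T48h against T12h, a stricter test by construction. It left 1 member called in T48h against KO, in T48h against WT and in T48h against T12h. With limma on log2(FPKM + 1), or with only the 2 groups compared in the fit, 1 member was called in T48h against KO and 1 in T12h against WT, and with limma on log2(FPKM + 0.1) 1 in T12h against WT; the cause was not tested. Leaving out single libraries gave 1070 to 2574 genes called for T12h against WT, 1 to 3 members for T48h against KO, 0 to 1 for T12h against WT, 1 to 4 for T48h against WT and 1 to 3 for T48h against T12h. Where that left a group with 1 library, it was assumed to vary like the others. Upper-quartile scaling moved the median of all genes by -0.14 for T48h against KO and -0.12 for T48h against WT. It split all calls 4719 higher and 6141 lower for T48h against KO (5509 and 5353 with TMM), 3053 and 4791 for T48h against WT (3858 and 3769), 3439 and 4746 for T48h against T12h (4014 and 4086) and 1047 and 1195 for T12h against WT (1275 and 986). Of 2808 list counts, 2541 stayed within 1.5 times. No paired analysis was possible because the column names carry no duplicate number. Neurog1, Neurog2, Neurod4 and Nhlh1 had at most 36 counts in any library, and what more depth or more libraries would give was not tested.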
